A study of Mus musculus with 9 samples.

Results

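The genes described are 42 genes of peptide signaling, which were read from a table of 51912 genes measured by RNA sequencing of micro-dissected E14.5 mouse midbrains. They were chosen by name and matched to the table through their identifiers in the GRCm38 annotation. By role they are 26 precursors of neuropeptides and peptide hormones, 5 granins (*Vgf*, *Scg2*, *Scg3*, *Chga* and *Chgb*), 2 proteins that bind prohormone convertases (*Scg5* and *Pcsk1n*), 4 processing enzymes (*Pcsk1*, *Pcsk2*, *Cpe* and *Pam*) and the 5 somatostatin receptors. The 9 libraries comprised 3 of *Nkx2.9*+/+ embryos (called WT below), 3 of *Nkx2.9*LacZ/+ embryos (Het) and 3 of *Nkx2.9*LacZ/LacZ embryos (KO), all on a C57Bl/6 background. The LacZ allele holds LacZ with a nuclear localization signal instead of the first exon of *Nkx2.9*, so Het and KO embryos both carried LacZ. Each library held 2 pooled midbrains, and a whole midbrain contains neurons, progenitors, vessels and blood. A lower value can therefore mean fewer cells of a type or less RNA per cell, which cannot be told apart here, and p-values measure the spread between these pooled libraries.

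Neuropeptides are made as larger precursors that enter the secretory pathway and are packed into dense-core granules, where granins take part in the sorting and condensing of the cargo. Prohormone convertases cut the precursor at basic residues, carboxypeptidase E trims those residues from the new ends, and peptidylglycine alpha-amidating monooxygenase (*Pam*) amidates many of the peptides. Somatostatin, the peptide made from *Sst*, acts through a family of inhibitory G protein-coupled receptors and marks subsets of inhibitory neurons in the brain. Transcription of *Sst* is a textbook case of control by cAMP through the cAMP response element, a palindrome bound by CREB.

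The sequence of this element is shown because it occurs in the promoters of members of 4 of the 5 roles. The promoter windows were those of RefSeq on GRCm38.p6, from 250 bases before to 50 bases after each start site, and 32 of the 42 genes had one. The windows of *Pnoc*, *Calcb*, *Cpe*, *Sstr5*, *Sstr1*, *Grp*, *Vgf*, *Crh*, *Npff* and *Penk* were not used here. The full element TGACGTCA, which reads the same on both strands, was in the window of 7 of these 32 genes (21.9%), beside 2.03% of all 27025 genes with a window and 3.58% of the 11136 such genes that passed the expression minimum given below. The 32 genes include some below that minimum, among them *Ucn*, so shares of genes above it are of an unlike set. The 7 windows of 30 bases are given on the strand of the gene, with the element in capitals.
Sst: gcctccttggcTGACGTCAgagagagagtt
Scg2: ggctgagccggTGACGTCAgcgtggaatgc
Chgb: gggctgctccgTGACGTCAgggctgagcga
Pcsk1: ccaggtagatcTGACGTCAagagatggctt
Sstr2: ccaagctgccgTGACGTCAcgggcgggggc
Cartpt: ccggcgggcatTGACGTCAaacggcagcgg
Ucn: atgttcttcgcTGACGTCAgtcggagctgt

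They lie at chr16:23890874-23890903 on the minus strand for *Sst*, chr1:79440076-79440105 on the minus strand for *Scg2* and chr2:132781559-132781588 on the plus strand for *Chgb*. The window of *Pcsk1* lies at chr13:75089768-75089797 on the plus strand and that of *Sstr2* at chr11:113619258-113619287 on the plus strand. The remaining windows lie at chr13:99900777-99900806 on the minus strand for *Cartpt* and chr5:31138921-31138950 on the minus strand for *Ucn*. Counted from the start site, the first base of the element was at -48 in *Sst*, -68 in *Scg2*, -72 in *Chgb*, -78 in *Pcsk1*, -58 in *Sstr2*, -112 in *Cartpt* and -44 in *Ucn*. The shorter site TGACG or CGTCA, which every full element contains, was in the window of 20 of the 32 genes (62.5%), beside 23.0% of all genes and 34.8% of those that passed the minimum. All 4 granins with a window held the shorter site. These are matches of letters, and binding was not measured.

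Between 1692963 and 5942192 reads per library fell on genes, and the median was 4921748. The table gives the genotype of each column but not the replicate, and libraries are referred to by column, 1 to 3 for KO, 4 to 6 for Het and 7 to 9 for WT. The shallow libraries are column 7 and column 4 (2584074 reads), and 1 read in column 7 is worth 2.59 normalized counts, against 0.702 in column 8. *Nkx2-9* itself had 28 reads in all and was not lower with the KO label (4, 6 and 3 reads) than with the WT label (0, 2 and 2 reads). The allele lacks only the first exon, so these reads cannot check the labels. KO, Het and WT below mean the libraries so labelled. The paper reports *En1*, *Pax7* and *Tph2* as upregulated in the mutant, and its list gives *Pcsk1n* a positive log2 fold change. Under the column labels used here these genes were lower in KO than in WT. The sources used here do not settle whether the KO and WT labels of the columns are in place, and every direction between them would be turned if they were exchanged. The neuron markers summed to between 27206 and 33736 normalized counts and were all detected, as were the 10 midbrain markers. Of 12 hypothalamic and forebrain markers, 11 had reads (all but *Rax*) and the sums ran from 332 to 460 normalized counts. Of 10 pituitary markers, 3 had reads, with sums of 10.2 to 22.8, and the hormone genes *Gh*, *Prl* and *Cga* were at 0.

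Of the 42 genes, 37 had at least 1 read and 28 reached the mean normalized count of 5 over the 9 libraries that was required for testing. Levels were compared between genes only per length, as the normalized count divided by the exon length and scaled to sum to 1000000 over all genes of a library, which is the unit TPM. *Cpe*, which encodes carboxypeptidase E, had by far the highest level, 294 ± 60.7 TPM (SD, n = 9), and lay 3.65 times above the next gene. *Pcsk1n* followed with 80.4 ± 12.5 TPM, *Scg5* with 74.1 ± 16.5 TPM and *Sst* with 73.7 ± 15.4 TPM. *Sst* lay above *Scg3*, the next gene, in 8 of 9 libraries, whereas *Pcsk1n* lay above *Scg5* in 6 of 9 and *Scg5* above *Sst* in 7 of 9. The means of these 3 genes differed by less than their spread over libraries.

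By role, the 4 enzymes made up 38.7% of the summed per-length level of the 42 genes, the 26 precursors 20.6%, the 5 granins 20.2%, the 2 convertase-binding proteins 18.4% and the 5 receptors 2.04%. The per-length scale moved most of these genes up and down together between libraries, with the enzymes summing to 213 TPM in column 9 and 418 TPM in column 5. The normalized counts of *Cpe* ran only from 1776 to 2044 over the same libraries. Libraries and genotypes are therefore compared below by normalized counts alone.

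**Figure D1:**
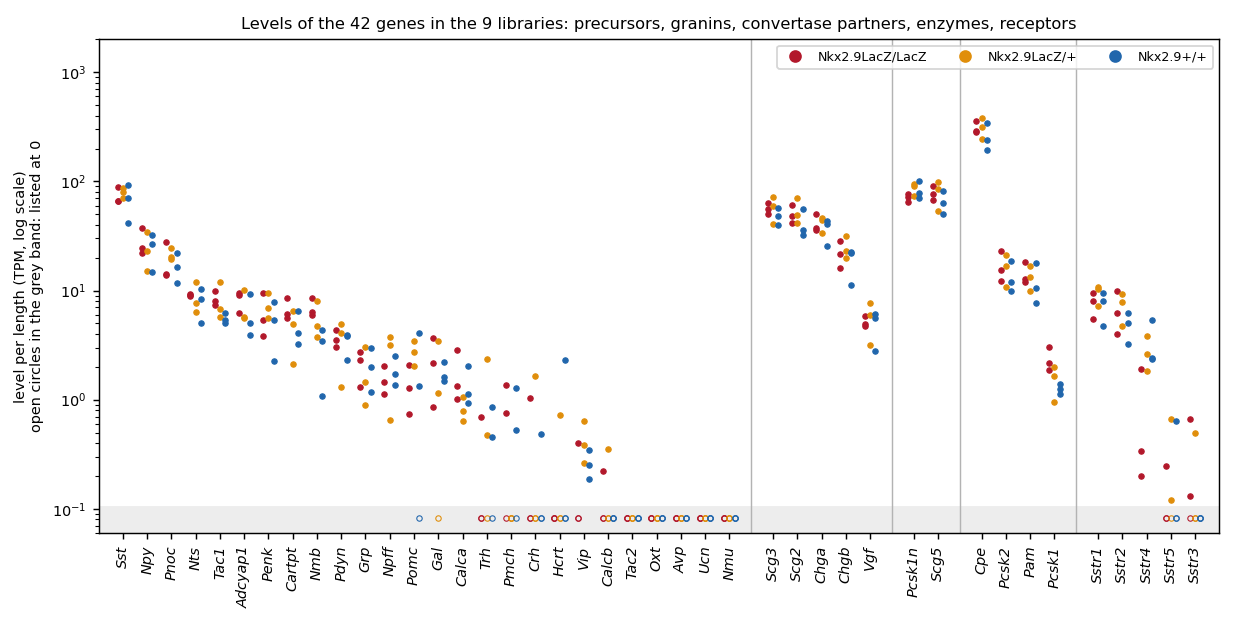
Level per length in TPM (normalized count per exon length, scaled to 1000000 per library, log axis) of the 42 genes, grouped by role and ordered by mean within each role, with 1 point per library colored by genotype and open circles in the grey band for genes listed at 0. *Cpe* lies above all other genes, *Sst* above all other precursors, and *Tac2*, *Oxt*, *Avp*, *Ucn* and *Nmu* are at 0 in all 9 libraries.

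The precursors were led by *Sst*, *Npy* and *Pnoc*. *Sst* (ENSMUSG00000004366, chr16:23889573-23890958, minus strand) had normalized counts of 126, 121 and 121 in the KO libraries, 155, 119 and 143 in the Het libraries and 199, 113 and 113 in the WT libraries. The 199 belongs to column 7, the shallowest library, and the other 8 libraries lay between 113 and 155. The log2 difference of KO from WT was -0.15 with a 95% interval of -0.59 to 0.28 (limma, unadjusted p = 0.466), and it was 0.12 without column 7. *Npy*, which encodes neuropeptide Y, had 36.9, 40.2 and 31.8 in KO, 39.1, 36.7 and 21.2 in Het and 54.3, 33.7 and 31.7 in WT. *Pnoc*, the precursor of nociceptin, had 81.3, 114 and 75.6 in KO, 127, 99.9 and 108 in Het and 142, 79.3 and 95.7 in WT. For both genes the 3 genotypes overlapped, and the highest value was again that of column 7.

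Per length, *Sst* lay 2.88 times above *Npy* and above it in 9 of 9 libraries, *Npy* above *Pnoc* in 8 of 9, and *Pnoc* 2.22 times above *Nts* in 9 of 9. Below *Pnoc* the order was close. *Nts* (neurotensin), *Tac1* (substance P and neurokinin A), *Adcyap1* (PACAP), *Penk* (enkephalins), *Cartpt* (CART peptides) and *Nmb* (neuromedin B) had means between 8.55 and 5.15 TPM, with SDs between 1.95 and 2.45 TPM. The opioid precursor *Pdyn* came next with 3.49 ± 1.12 TPM, followed by *Grp* (gastrin-releasing peptide, 1.99 ± 0.826), *Npff* (1.98 ± 1.00), *Pomc* (1.97 ± 1.30), *Gal* (galanin, 1.84 ± 1.18) and *Calca* (calcitonin and CGRP, 1.31 ± 0.710). *Calca* and its paralog *Calcb* are similar in sequence, and reads shared between them could be assigned to either or neither.

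Of the 12 precursors below the minimum, *Gal* had 33 reads in all, *Vip* 23, *Trh* 18, *Crh* 10, *Pmch* 10, *Hcrt* 3 and *Calcb* 2. *Tac2*, *Ucn*, *Avp*, *Oxt* and *Nmu* had 0 of 41253425 reads, which allows up to 0.0727 reads per 1000000 by counting error alone. *Avp*, *Oxt*, *Hcrt*, *Pmch*, *Crh* and *Trh* are best known from the hypothalamus. *Ucn*, the gene of urocortin, is thus a gene with the full cAMP response element in its promoter window and no read in these libraries, whereas *Sst* carries the same element at a similar distance and leads the precursors.

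No granin passed the test between genotypes. *Scg3*, which encodes secretogranin III, had normalized counts of 403, 332 and 350 in KO, 336, 371 and 405 in Het and 328, 345 and 498 in WT. *Scg2*, the precursor of secretoneurin, had 326, 291 and 265 in KO, 319, 336 and 308 in Het and 272, 314 and 304 in WT. *Chga*, which encodes chromogranin A, had 277, 263 and 252 in KO, 386, 230 and 233 in Het and 336, 264 and 266 in WT. The 3 genotypes overlapped for each of these genes, and the high values of *Chga* were those of the shallow columns 4 and 7. *Chgb* ranged from 116 to 189 and *Vgf* from 23.7 to 54.3 over the 9 libraries. The unadjusted limma p was above 0.05 for all 5 granins in each of the 3 comparisons, and the log2 differences of KO from WT ran from -0.15 (*Vgf*) to -0.01 (*Scg2*). The 95% interval was -0.29 to 0.26 for *Scg2* and -0.42 to 0.25 for *Scg3*.

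The processing enzymes differed more in level than between genotypes. *Cpe* (ENSMUSG00000037852, chr8:64592542-64693054, minus strand) had normalized counts of 1978, 1776 and 1913 in KO, 1917, 1869 and 2044 in Het and 1878, 1968 and 1900 in WT. *Pcsk2*, which encodes prohormone convertase PC2, had 260, 346 and 306 in KO, 257, 320 and 330 in Het and 284, 328 and 292 in WT. *Pam*, which encodes the amidating enzyme, had 378, 413 and 380 in KO, 359, 381 and 391 in Het and 372, 467 and 345 in WT. The genotypes overlapped for these 3 enzymes, and the 95% interval of the log2 difference of KO from WT was -0.24 to 0.20 for *Cpe*, -0.31 to 0.31 for *Pcsk2* and -0.29 to 0.27 for *Pam*. *Pcsk2* overlaps the antisense genes *Pcsk2os1* and *Pcsk2os2*, and *Pam* overlaps *B230216N24Rik* on the same strand, so reads of these pairs may not be fully separated.

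*Pcsk1* (ENSMUSG00000021587, chr13:75089826-75134861, plus strand), which encodes the other neuroendocrine convertase PC1/3, was the lowest of the 4 enzymes per length. *Pcsk2* lay above *Pam* in 9 of 9 libraries and *Pam* lay 7.70 times above *Pcsk1*, also in 9 of 9. The normalized counts of *Pcsk1* were 27.8, 32.0 and 30.9 in KO, 16.3, 21.3 and 22.8 in Het and 23.3, 15.4 and 23.6 in WT. All 3 KO libraries lay above the 6 others, which overlapped among themselves. The log2 difference from WT was 0.54 with a standard error of 0.31 and a 95% interval of -0.11 to 1.20, and it did not pass the test (limma, unadjusted p = 0.0952, adjusted p = 1.00). Without column 8 it was 0.35 (limma, unadjusted p = 0.309). From Het, with all libraries, it was 0.57 (limma, unadjusted p = 0.0800), with the same KO libraries in both comparisons. The exact two-sided permutation p was 0.1 in each, the smallest that 3 libraries against 3 allow.

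*Pcsk1n* (ENSMUSG00000039278, chrX:7919822-7924410, plus strand) encodes proSAAS, a granule protein known as an inhibitor of PC1/3, and it was lower in the libraries labelled KO. The normalized counts were 382, 317 and 398 in KO, 487, 379 and 518 in Het and 512, 495 and 583 in WT. The KO and WT libraries did not overlap, and the Het libraries spread over both. The log2 difference of KO from WT was -0.54 with a standard error of 0.14 and a 95% interval of -0.84 to -0.23 (limma, unadjusted p = 0.0018, adjusted p = 1.00 over 16993 genes), and the exact permutation p was 0.1. From Het it was -0.33 with a 95% interval of -0.63 to -0.02 (limma, unadjusted p = 0.0359). This second difference did not pass without column 2 (-0.23), column 4 (-0.28) or column 6 (-0.24). *Pcsk1n* is in the study's list of regulated genes, which was chosen on these libraries, so its difference is not independent of that choice. That list gives *Pcsk1n* the opposite direction. The direction given here rests on the column labels, which are in doubt. *Eras*, which overlaps it on the opposite strand, had 11 reads in all.

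*Scg5*, which encodes 7B2, the chaperone of PC2, showed no such difference. It had 320, 267 and 269 in KO, 254, 294 and 334 in Het and 295, 283 and 298 in WT. The 95% interval of its log2 difference between KO and WT was -0.33 to 0.26.

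The somatostatin receptors differed in level from one another. Per length, *Sstr1* had 8.16 ± 2.09 and *Sstr2* 6.27 ± 2.32 TPM, and *Sstr1* was above *Sstr2* in 5 of 9 libraries, so this pair was not separated. *Sstr2* lay 2.71 times above *Sstr4* and *Sstr4* 12.6 times above *Sstr5*, each in 9 of 9 libraries. *Sstr5* had 9 reads and *Sstr3* 12 reads in all, and these genes were not separated either (*Sstr5* higher in 4 of 9 libraries).

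The normalized counts of *Sstr1* were 30.1, 36.6 and 41.2 in KO, 66.8, 40.1 and 36.7 in Het and 49.1, 42.8 and 36.1 in WT. Those of *Sstr2* were 35.4, 40.2 and 21.5 in KO, 31.0, 37.6 and 41.6 in Het and 20.7, 29.5 and 40.5 in WT. Neither receptor passed the test in any comparison, with 95% intervals of the log2 difference of KO from WT of -0.82 to 0.34 for *Sstr1* and -0.57 to 0.77 for *Sstr2*. *Sstr3* was detected in 3 libraries (2 and 6 reads in KO and 4 reads in Het) and was listed at 0 in the WT libraries. *Sstr5* was detected in 4 libraries, with 2 reads in KO, 4 and 1 in Het and 2 in WT. Neither gene reached the minimum for testing. In a fit without a minimum, the log2 difference of KO from WT was 1.34 for *Sstr3*, with a 95% interval of -0.18 to 2.86. For *Sstr5* it was -0.39, with a 95% interval of -1.87 to 1.09.

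*Sstr4* (ENSMUSG00000037014, chr2:148395344-148396767, plus strand) showed the largest log2 difference between KO and WT among the 28 genes tested, and it was lower in the libraries labelled KO. The recovered reads were 1, 1 and 8 in KO, 7, 12 and 8 in Het and 4, 24 and 17 in WT. The normalized counts were 0.753, 0.915 and 6.87 in KO, 11.4, 10.2 and 6.53 in Het and 10.3, 16.8 and 12.5 in WT. Columns 1 and 2 lay far below every other library, and column 3 lay within the range of the Het libraries but below all WT libraries.

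The log2 difference of *Sstr4* between KO and WT was -2.23 with a standard error of 0.63 and a 95% interval of -3.57 to -0.89 (limma, unadjusted p = 0.0028, adjusted p = 1.00). The exact permutation p was 0.1, again the smallest possible. On the recovered reads it was -2.24 with the quasi-likelihood test of edgeR (unadjusted p = 0.0034) and -2.27 with DESeq2 (unadjusted p = 0.0025). From WT it was -1.85 without column 1 (limma, unadjusted p = 0.0144) and -1.91 without column 2 (limma, unadjusted p = 0.0132). Without column 8 it was -2.06 (limma, unadjusted p = 0.0158). From Het it was -1.77 (limma, unadjusted p = 0.0128), or -1.39 without column 1 (limma, unadjusted p = 0.0546). Without column 3, which holds 8 of the 10 KO reads, the difference was -2.93 from WT (limma, unadjusted p = 2.8e-04) and -2.47 from Het (limma, unadjusted p = 0.0012). Between Het and WT, over all libraries, it was -0.46 with a 95% interval of -1.80 to 0.88.

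**Figure D2:**
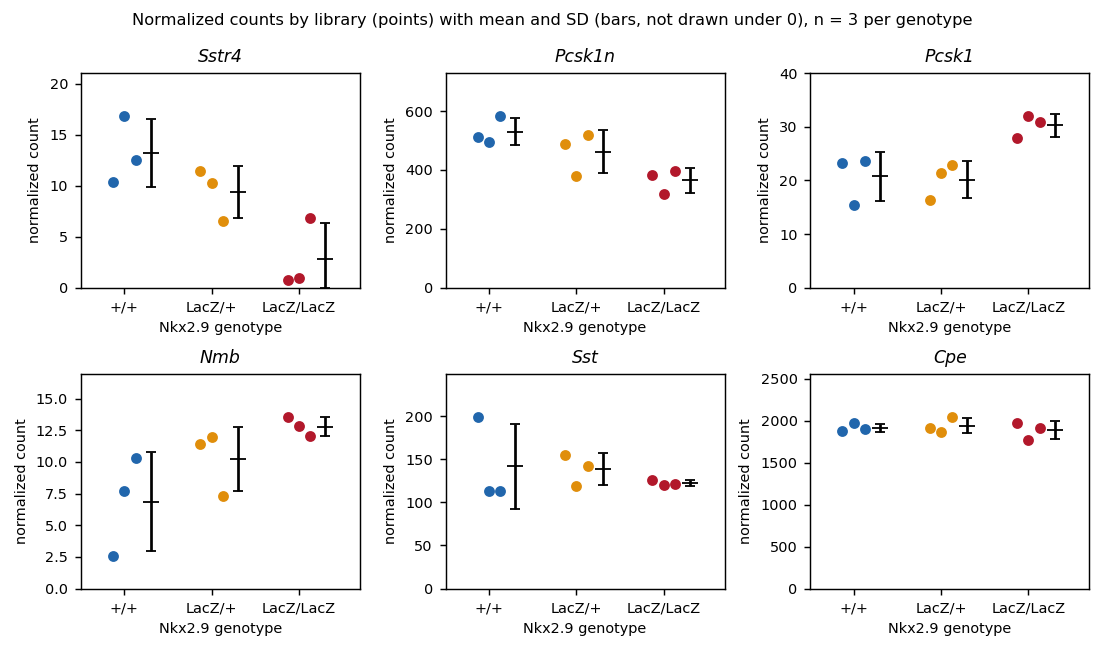
Normalized counts of *Sstr4*, *Pcsk1n*, *Pcsk1*, *Nmb*, *Sst* and *Cpe* in each library (points, ordered by column), with the mean and SD of each genotype (bars, n = 3, not drawn under 0) and axes from 0. The KO points lie below the WT points for *Sstr4* and *Pcsk1n* and above them for *Pcsk1* and *Nmb*, and overlap them for *Sst* and *Cpe*.

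Other features moved with these genotypes. *Xist*, the transcript of the silenced X chromosome in females, had 6155, 5037 and 6034 reads in KO, 49, 17 and 3590 in Het and 1679, 3676 and 64 in WT. The 4 Y-linked genes read summed to 0 to 2.26 normalized counts in KO, to 606, 1058 and 3.26 in Het and to 0, 505 and 1075 in WT, so that column 8 had both *Xist* and Y-linked reads. No KO library had more than 2.26 Y-linked counts, so differences by sex and by genotype cannot be fully told apart here. Column 7, the shallowest library, was the WT library most like the KO libraries in these genes. It had 10.3 normalized counts of *Sstr4*, from 4 reads, and 512 of X-linked *Pcsk1n*, above all KO libraries. Column 6, the Het library with few Y-linked reads, had 6.53 of *Sstr4*, below KO column 3, and 518 of *Pcsk1n*. With log2 *Xist* as a covariate, the log2 difference from WT was -2.12 for *Sstr4* (limma, unadjusted p = 0.0093) and -0.57 for *Pcsk1n* (limma, unadjusted p = 0.0035). With this covariate neither gene passed between KO and Het (*Sstr4* -1.56, limma, unadjusted p = 0.0834, and *Pcsk1n* -0.40, limma, unadjusted p = 0.0604).

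The 10 midbrain markers summed to 1465 to 1649 normalized counts in KO, 1437 to 2094 in Het and 1802 to 1918 in WT, and 3 of them (*En1*, *Pax7* and *Pitx3*) were lower in the libraries labelled KO than in those labelled WT at an unadjusted limma p under 0.05. The 10 hindbrain markers, of which 2 were at 0 in every library, summed to 65.3 to 80.5, 68.5 to 122 and 96.8 to 137, and 2 of them (*Tph2* and *Slc6a4*) were lower by the same test. *En1*, *Pax7* and *Tph2* are in the study's list, which was chosen on these libraries, so these counts are not independent of that choice. The paper reports *En1*, *Pax7* and *Tph2* as upregulated in the mutant, and the directions given here too rest on the column labels. Over all genes tested, 1.22% were lower by this test. The part of these marker changes in the differences of *Sstr4* and *Pcsk1n* was not tested. The neuron markers, whose sums were 31374 to 31939, 27206 to 33736 and 29466 to 32824, had 0 of 10 genes at that threshold in limma.

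The comparison of KO with WT asks which transcripts change when *Nkx2.9* is lost. At an unadjusted limma p under 0.05, 2 of the 28 genes tested were lower in KO (*Sstr4* and *Pcsk1n*, 7.14%) and 0 were higher, beside 2.60% of all 16993 genes tested (1.22% lower and 1.38% higher). With 28 genes, each gene is 3.57% of the total. No gene passed the adjustment by limma, edgeR or DESeq2, among these 28 or among all genes. For 4 of the 28 genes (14.3%) the KO and WT values were fully separate, beside 9.52% of all genes (5.08% higher and 4.43% lower). *Nmb* and *Pcsk1* were the higher ones and *Pcsk1n* and *Sstr4* the lower ones. The median log2 difference was -0.04 over the 28 genes and 0.01 over all genes.

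*Nmb* (ENSMUSG00000025723, chr7:80902227-80905076, minus strand), the precursor of neuromedin B, had 18, 14 and 14 reads in KO, 7, 14 and 9 in Het and 1, 11 and 14 in WT. The normalized counts were 12.8 ± 0.763 in KO, 10.2 ± 2.52 in Het and 6.87 ± 3.93 in WT (SD, n = 3), and the lowest value, in column 7, rests on 1 read. The log2 difference of KO from WT was 0.96 with a 95% interval of -0.11 to 2.04 and did not pass (limma, unadjusted p = 0.0761, exact permutation p = 0.1). It was 0.47 without column 7 (limma, unadjusted p = 0.302), and it passed in 3 of 20 alternatives, which were the fit without the trend, without column 9 (1.30, limma, unadjusted p = 0.0342) and with *Xist* as a covariate (1.30, limma, unadjusted p = 0.0253). Reads of *Nmb* may be shared with *Sec11a*, which overlaps it on the same strand.

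Between Het and WT, 0 of the 28 genes had an unadjusted p under 0.05 by limma, edgeR or DESeq2, beside 2.78% of all genes by limma (1.31% higher and 1.48% lower). *Calca* was the only one of the 28 whose values did not overlap (lower in Het, 3.57%, beside 6.91% of all genes, 3.40% higher and 3.51% lower). It had 3.26, 3.42 and 3.26 in Het and 10.3, 4.21 and 5.89 in WT, which rest on 2 to 4 reads per library and 4 to 8 reads per library. The KO libraries had 6.02, 9.15 and 4.29, above the Het ones as well.

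Between KO and Het, *Sstr4* and *Pcsk1n* were lower at an unadjusted limma p under 0.05 (7.14%, beside 2.64% of all genes, 1.49% higher and 1.15% lower). Neither passed with *Xist* as a covariate. Both comparisons use the same KO libraries, so this is no separate observation. Values did not overlap for *Nmb*, *Calca* and *Pcsk1*, which were higher, and *Pomc*, which was lower (14.3%, beside 8.71% of all genes, 4.62% higher and 4.09% lower). *Pomc*, the precursor of melanocortins and beta-endorphin, had 4.52, 1.83 and 6.87 in KO, 8.15, 8.54 and 8.97 in Het and 0, 11.9 and 6.62 in WT. Its WT values thus span those of both other genotypes, and the log2 difference of -0.94 had a 95% interval of -2.70 to 0.82.

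**Figure D3:**
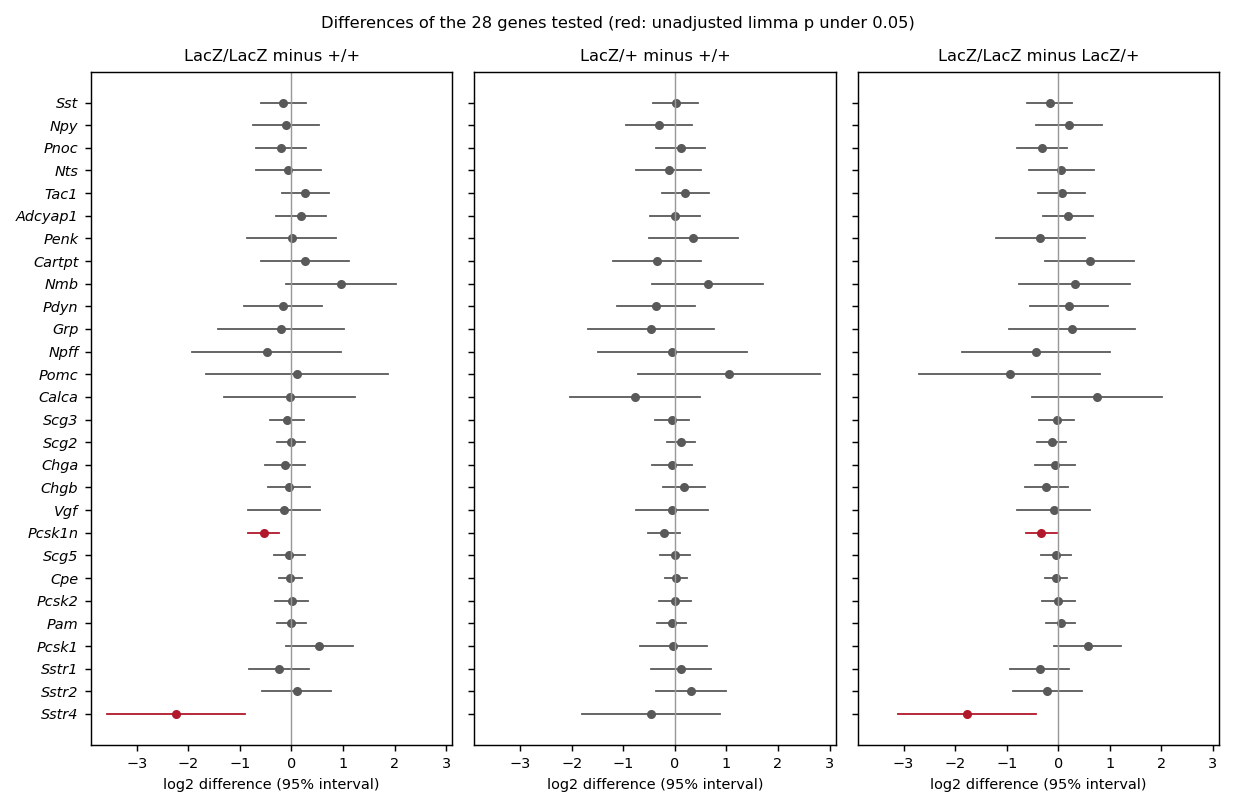
Log2 differences (points) with 95% intervals (lines) of the 28 genes tested in the 3 comparisons of genotypes, ordered by role, on a shared axis. *Sstr4* and *Pcsk1n*, in red, had an unadjusted limma p under 0.05 in the comparisons that include KO, and the intervals of the other genes include 0.

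Among libraries of the same genotype, the median SD of log2(normalized count + 1) was 0.31 over the 28 genes and 0.29 over all genes tested, and it was 0.16 over the 8 genes with a mean of at least 200 and 0.17 over all genes at that level. The shallow columns 4 and 7 held the 2 highest values for 7 of the 28 genes (25.0%; *Sst*, *Penk*, *Pnoc*, *Vgf*, *Chga*, *Chgb* and *Sstr1*), beside 10.8% of all genes tested, and the 2 lowest values for 0 of the 28, beside 13.3% of all genes. These columns belong to different genotypes, Het and WT. Without both of them, *Sstr4* (-2.38) and *Pcsk1n* (-0.56) were the 2 genes at an unadjusted limma p under 0.05 between KO and WT.

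**Figure D4:**
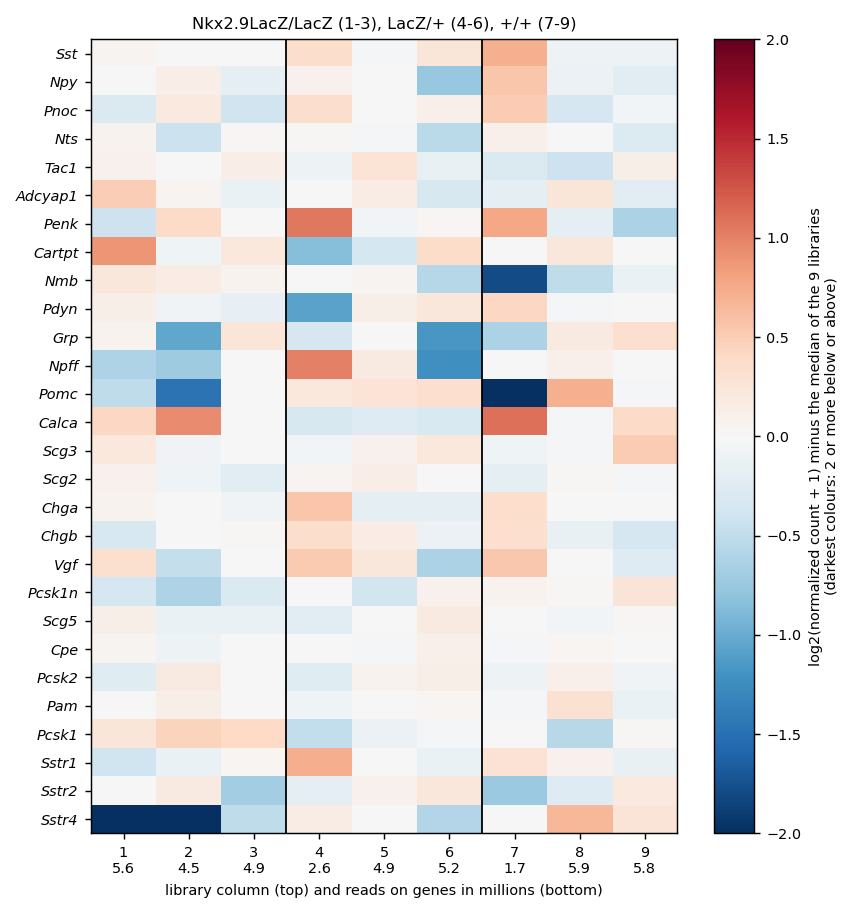
Deviation of log2(normalized count + 1) from the median of the 9 libraries for the 28 genes tested (rows, by role) in each library (columns, with the reads on genes below), where the darkest colors stand for 2 or more. *Sstr4* is lowest in columns 1 and 2, and *Sst*, *Pnoc*, *Penk* and *Chga* are raised in the shallow columns 4 and 7.

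Other genes of the pathway were read from 4 lists of 132 genes, of which 76 passed the minimum. Between KO and WT, 1 of the 76 was higher and 0 were lower at an unadjusted limma p under 0.05 (1.32%, beside 2.60% of all genes). Between Het and WT 2 were higher and 1 was lower (3.95%, beside 2.78%), and between KO and Het the count was 0, beside 2.64%. None of the 19 further processing enzymes and peptidases tested and none of the 26 further granule and exocytosis genes tested was at this threshold in any of the 3 comparisons.

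Of 37 further peptide precursors, 6 were tested. *Nucb2*, which encodes nesfatin-1, had normalized counts of 114, 88.7 and 106 in KO, 112, 91.4 and 92.2 in Het and 59.5, 74.4 and 86.9 in WT. The WT libraries lay below the 6 others, and the log2 difference from WT was 0.49 for KO (limma, unadjusted p = 0.0235) and 0.43 for Het (limma, unadjusted p = 0.0428). Without column 7 these were 0.34 and 0.29, and neither passed. The difference of KO passed in 17 of 21 alternatives and that of Het in 9 of 21. The latter did not pass with edgeR (0.36, unadjusted p = 0.0797) or DESeq2 (0.37, unadjusted p = 0.111). *Cort*, the precursor of cortistatin, which also binds somatostatin receptors, had 28 reads in all and was not tested.

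Of 48 receptors for other peptides and their partners, 25 were tested. *Mchr1*, a receptor for melanin-concentrating hormone, had 26.1, 16.2 and 20.4 in Het and 5.17, 4.91 and 11.8 in WT, with 11.3, 12.8 and 10.3 in KO. The Het libraries were the 3 highest, with a log2 difference from WT of 1.47 (limma, unadjusted p = 0.0039, adjusted p = 1.00). *Oprm1*, the mu-opioid receptor, had 4.89, 6.83 and 16.3 in Het and 23.3, 16.8 and 15.5 in WT, with 6.77, 10.1 and 18.0 in KO. These overlapped, and the log2 difference of -1.05 (limma, unadjusted p = 0.0493) passed in 4 of 20 alternatives. It was -0.83 with edgeR (unadjusted p = 0.119), -0.87 with DESeq2 (unadjusted p = 0.126) and -0.56 without both shallow libraries, where it did not pass.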

How the data were processed

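RNA of E14.5 midbrains was sequenced in 9 libraries of 2 pooled midbrains each. By the study's methods, ribosomal RNA was depleted, and the authors aligned 100-bp paired reads with Hisat2 to mm10, counted them per gene with featureCounts and divided them by a DESeq2 size factor per library. The signal deposited for each gene and library is this normalized count. Versions, the annotation release and the strand setting of the counting are not given in the sources used here. The labels describe a Trizol isolation and an mRNA protocol instead, and the series title names cortex where the sample labels name midbrain. The authors also deposited DESeq2 tables of the 3 comparisons (mean, log2 fold change, standard error, Wald score and p-values), which were not used.

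Identifiers were matched to GENCODE M21, which held 51719 of 51912. All 210686 values above 0 (100%) were whole multiples of 1 read within 0.05 reads, and reads were recovered from this. limma 3.58.1 (R 4.3.3; lmFit, eBayes with trend) was run on log2(normalized count + 1) in a single two-sided fit of all 9 libraries, and p-values were adjusted by Benjamini-Hochberg over the 16993 genes whose mean was at least 5. Differences on this scale understate the change of low genes. edgeR 4.0.16 and DESeq2 1.42.0 on the recovered reads, pseudocounts of 0.5 and 5, other minimums, scalings and fits, and leaving out each library were the alternatives, and leaving out both shallow libraries was added after seeing the data. The script was tested on simulated data. Intervals are at 95%, and limits for a count of 0 use 3 reads.

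The 42 genes, the pathway and the marker lists were chosen with earlier results of these data known. Values in every library are given for those of the 42 genes at an unadjusted p under 0.05 or without overlap between KO and WT, the 3 highest genes per length of each role and the 5 receptors. Other pathway genes are named where their unadjusted p was under 0.05. *Calca*, *Pomc* and *Cort*, outside this rule, were chosen after their values were seen. Marker lists for progenitors, forebrain, choroid plexus, blood, vessels, meninges, microglia and Y-linked genes were read too. Of their genes, *Kl*, *Foxc1* and the 4 Y-linked genes were lower in KO than in WT at an unadjusted limma p under 0.05 and none was higher. Protein sequences were not used here.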

Additional observations from a re-analysis of the deposited data

How the results depend on the processing

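Between KO and WT, *Sstr4* kept its direction and an unadjusted p under 0.05 in all 20 alternatives that tested it (log2 difference -2.93 to -1.29) and *Pcsk1n* in all 21 (-0.60 to -0.41). Leaving out a Het library cannot move these differences, only their p-values. For *Pcsk1n* the highest p was that with upper-quartile scaling (limma, unadjusted p = 0.0494). The number of the genes at this threshold, 2, was 1 with a minimum mean of 20, which leaves *Sstr4* untested, 4 without the trend, which adds *Nmb* and *Pcsk1*, 3 with *Xist* as a covariate, which adds *Nmb*, and 2 to 3 with a library left out. Between Het and WT the number, 0, was 1 without the trend (*Calca*) and 0 to 1 with a library left out (*Chga* without column 4). Between KO and Het the number, 2, was 1 with a minimum of 20, 1 with upper-quartile scaling, 0 with *Xist* as a covariate and 1 to 2 with a library left out (*Sstr4* and *Cartpt* without column 6). Without the trend it was 3, with *Calca* and *Pcsk1* in and *Pcsk1n* out.

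The *Cpe* difference between KO and WT (-0.02) was 0.11 with upper-quartile scaling, where the median of all genes was 0.14, and -0.055 to 0.023 with a library left out (0.023 without column 2). The *Sst* difference (-0.15) was 0.12 without both shallow libraries and -0.29 to 0.12 with a library left out. Upper-quartile scaling also moved the calls over all genes from 234 higher and 207 lower to 273 and 76. After adjustment, DESeq2 called 1 gene between Het and WT, and leaving out both shallow libraries gave 6 genes between KO and WT, where limma, edgeR and DESeq2 on all libraries gave 0. The cause of these changes was not tested. No paired analysis was possible because the columns carry no replicate number. At 1692963 reads in the shallowest library, genes near the minimum rest on few reads. The 9 genes below the minimum that had reads were compared only in the fit without a minimum. None of them was at an unadjusted limma p under 0.05 there in any comparison of genotypes.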
